A study of Sus scrofa with 15 samples.

Results

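To ask how LLC-PK1 cells responded to the Tg2 mutant of PKD2, the 3 libraries transfected with the Tg2 plasmid were compared with the 3 libraries transfected with the empty plasmid (NC), which are 6 of the 15 libraries in the series. LLC-PK1 is an epithelial cell line from the pig renal proximal tubule. The Tg2 plasmid was FLAG-floxP-neo-pH11 carrying PKD2 with the coding change T1967G and the protein change L656W, and NC was the same plasmid with no PKD2 gene. In each case 3 µg of plasmid was transfected and RNA was taken 48 h later. The WT, Tg1 and Tg3 plasmids carried unmutated PKD2 and the other mutants, and their libraries are used here only to estimate the spread between replicates and for the direct comparisons with Tg2 at the end. The transgene was human PKD2 under the CAG promoter, so it was added to the PKD2 of the pig cells, and the transfection was transient. The 3 replicates of a plasmid were wells of the same cell line. No source describes them as separate cultures or days, so the p-values measure only the spread between these wells, which may be technical. Human PKD2 and pig PKD2 were not analysed here.

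PKD2 encodes polycystin-2, a cation channel of the transient receptor potential family. It assembles with polycystin-1, the product of PKD1, and is found in the primary cilium and the endoplasmic reticulum (ER), where it takes part in calcium signalling. Loss of either gene product causes autosomal dominant polycystic kidney disease, in which tubule epithelial cells proliferate, dedifferentiate and form fluid-filled cysts, and in which cAMP, MAPK and inflammatory signalling are altered. The mutation in Tg2 replaces a leucine of the channel with tryptophan. In the libraries, pig PKD1 was counted at 82.6, 76.6 and 92.4 CPM (scaled read counts, explained below) in Tg2 replicates 1, 2 and 3 and at 84.8, 74.4 and 82.3 CPM in NC replicates 1, 2 and 3. These ranges overlapped (log2 fold change 0.06, SE 0.07, edgeR adjusted p = 0.547).

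All values are CPM, read counts divided by the TMM-normalized library size and scaled alike in every library, and are given in the order of replicates 1, 2 and 3. They are not divided by gene length and compare libraries for the same gene, not genes with each other. The total was 22184915 to 23485932 counts per Tg2 library and 22107982 to 26132196 per NC library. Of the 16660 genes in the table, the 11553 with a mean of 2 CPM or more over all 15 libraries were tested, and they held 99.8% of the counts. The libraries did not fall into compact groups. Along the first principal component, which held 70.8% of the variance, Tg2 replicates 1 and 2 lay at -18.9 and -14.9 and NC replicates 1 and 3 at 13.1 and 18.4, while Tg2 replicate 3 (-0.85) and NC replicate 2 (3.16) lay next to each other near the centre. Pairs of libraries of the same plasmid were further apart than counting alone would put them (chi-square divided by its degrees of freedom, 4.47 to 20.8 within Tg2 and 3.87 to 16.5 within NC), so all 6 were counted as separate samples. On the second component (10.6%) the same 2 libraries lay at opposite ends, at -9.67 and 7.99.

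**Figure D1:**
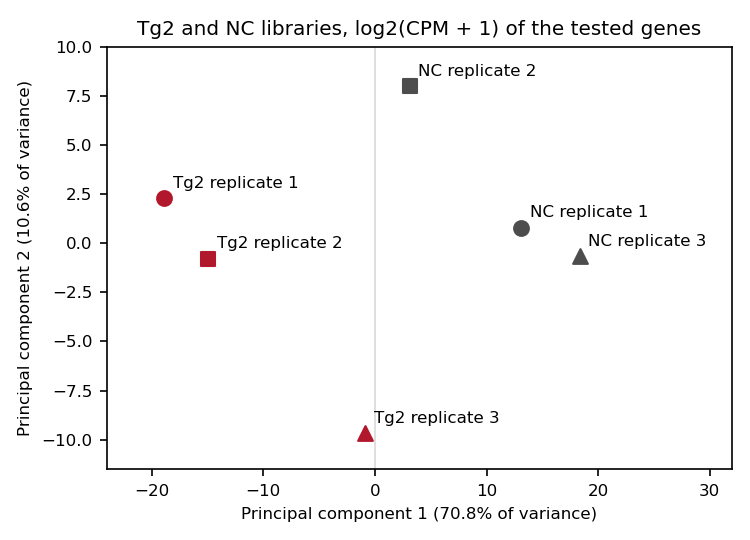
Each point is a library (red, Tg2; grey, NC; circle, square and triangle for replicates 1, 2 and 3) on the first and second principal components of log2(CPM + 1) over the tested genes. Tg2 replicate 3 and NC replicate 2 sit beside the centre line of the horizontal axis, and the remaining 4 libraries sit at its ends, Tg2 to the left.

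Many genes differed by a small amount between the Tg2 and NC libraries. Genes were called differentially expressed (DEGs) when the quasi-likelihood test of edgeR gave them an adjusted p of at most 0.05 and the log2 fold change was at least 0.26 in size. There were 974 DEGs, or 8.43% of the genes tested, of which 546 (4.73%) were higher in Tg2 and 428 (3.70%) were lower. The median absolute log2 fold change was 0.43 among the higher genes and 0.37 among the lower genes. The tails were unequal: 42 genes were higher by a log2 fold change of 1 or more, up to 1.72, whereas 0 were lower by as much, and the largest decrease was 0.96. All 3 Tg2 libraries lay beyond all 3 NC libraries for 528 of the higher and 411 of the lower DEGs. The same held in either direction for 35.5% of all tested genes. DEGs were selected on these same libraries, so their separation is not further support. A gene without overlap reaches the smallest two-sided p-value that an exact permutation test of 3 libraries against 3 allows, 0.1.

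The library that lay nearest to the other group was mostly the same. Tg2 replicate 3 was the Tg2 library closest to NC in 487 of the 546 higher and 327 of the 428 lower DEGs, and NC replicate 2 was the NC library closest to Tg2 in 466 and 318 of them. The number of DEGs followed these libraries. It was 1878 without Tg2 replicate 3 and 1321 without NC replicate 2, but 48 without Tg2 replicate 1, 24 without NC replicate 1, and 0 without Tg2 replicate 2 or NC replicate 3, where 3015 and 2751 genes had an unadjusted p under 0.05 (4069 with all libraries). No DEG was called in all 6 of these fits, and 16 higher and 2 lower DEGs were called in at least 4. With scaling by library size alone in place of TMM, the median log2 fold change of all genes moved from -0.01 to -0.08 and the split of the DEGs turned from 546 higher and 428 lower to 402 higher and 990 lower, so the fold changes below are relative to the bulk of the genes.

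**Figure D2:**
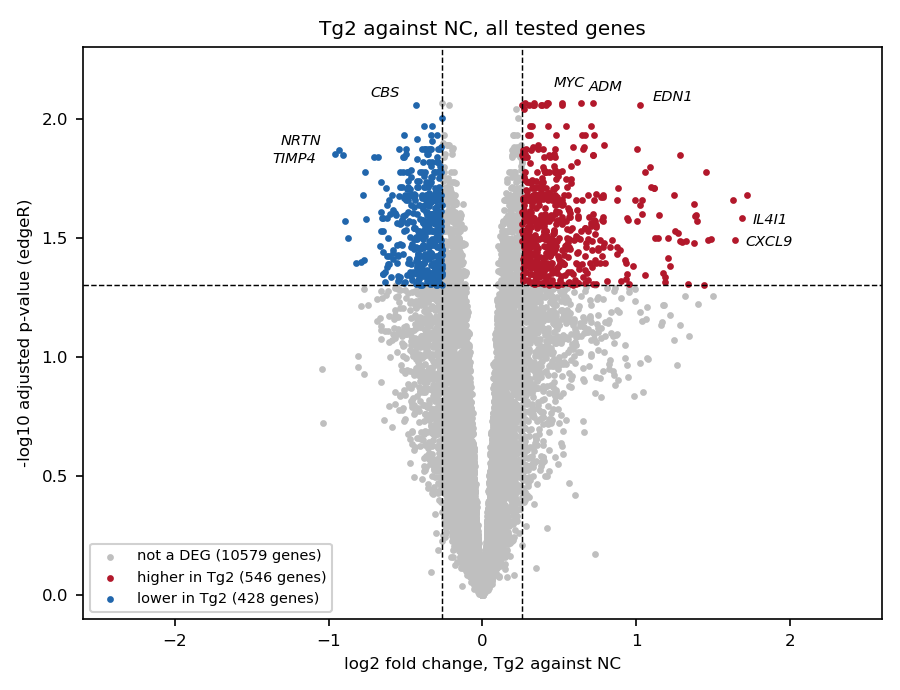
Each point is a tested gene, with the log2 fold change of Tg2 against NC on the horizontal axis and -log10 of the edgeR adjusted p-value on the vertical axis, and dashed lines mark the DEG thresholds. The 546 higher DEGs (red) extend to a log2 fold change of 1.72 and the 428 lower DEGs (blue) to -0.96, and no gene has an adjusted p-value below 0.00865.

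**Figure D3:**
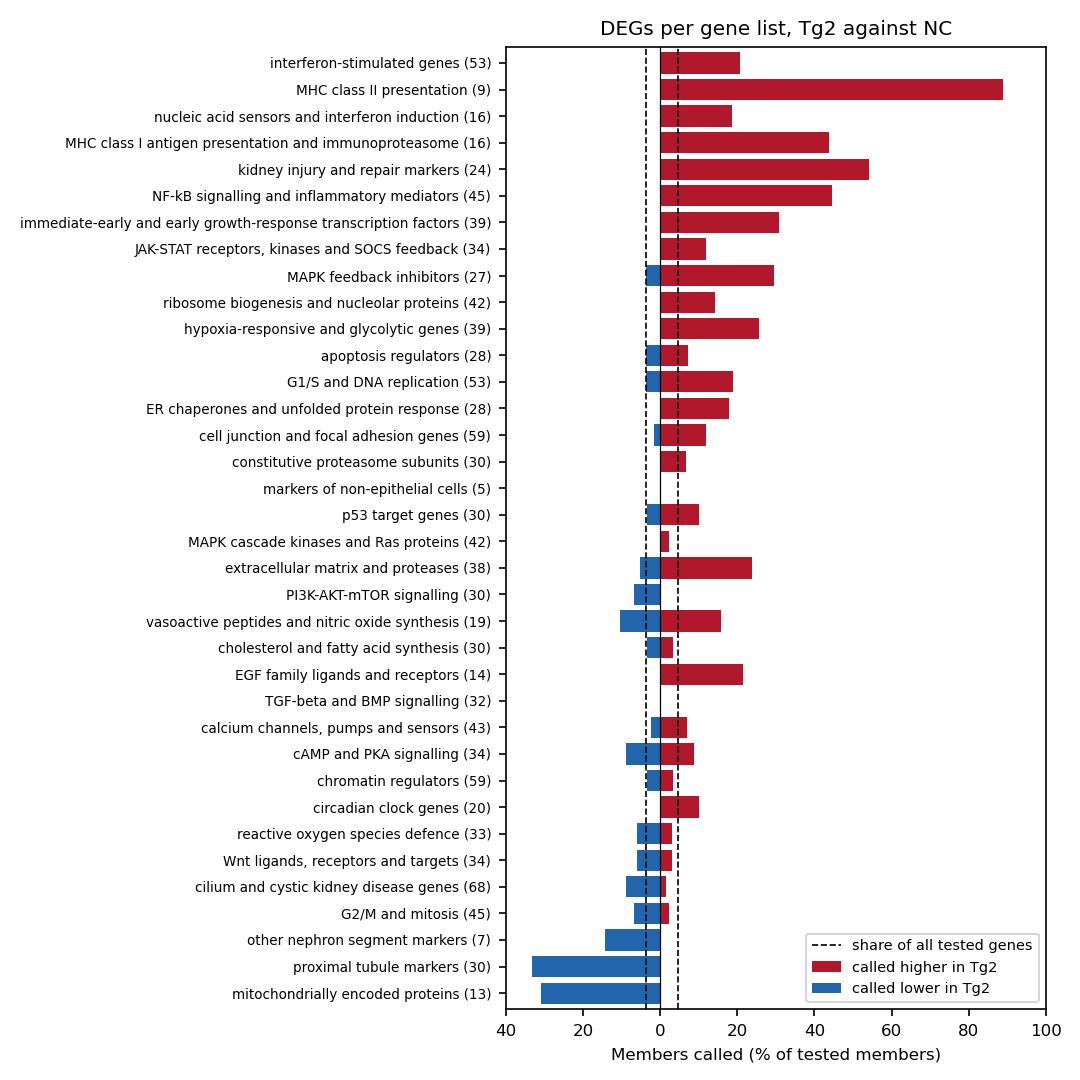
For each of 36 gene lists, with its number of tested members in brackets, the bars give the percentage of members called higher (red, to the right) and lower (blue, to the left) in Tg2 than in NC, and dashed lines give the same percentages over all tested genes, 4.73% and 3.70%. Lists are ordered from the highest median log2 fold change at the top, the interferon-stimulated genes (0.57), to the lowest at the bottom, the mitochondrially encoded proteins (-0.28).

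The DEGs with the smallest adjusted p-values included growth, stress and transport genes. MYC (ENSSSCG00000005965), the growth-promoting transcription factor, was at 318, 340.4 and 310.3 CPM in Tg2 and 218, 235 and 223 CPM in NC. The lowest Tg2 library was well above the highest NC library, a 1.43-fold increase (log2 fold change 0.52, SE 0.07, edgeR adjusted p = 0.00865). IER3 (ENSSSCG00000027607), an early response gene that modulates apoptosis and ERK signalling, was at 271, 320.3 and 280.3 CPM in Tg2 and 179, 195 and 185 CPM in NC, again without overlap (log2 fold change 0.64, SE 0.09, edgeR adjusted p = 0.00865). ADM (ENSSSCG00000013408), the precursor of the vasodilator peptide adrenomedullin, was at 125, 112 and 99.3 CPM in Tg2 and 66.0, 73.5 and 64.2 CPM in NC. Its highest Tg2 value was replicate 1 and its lowest replicate 3, and all 3 exceeded NC (log2 fold change 0.72, SE 0.09, edgeR adjusted p = 0.00865).

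SLC7A1, a transporter of arginine and lysine, was at 96.0, 99.0 and 89.6 CPM in Tg2 and 69.4, 72.3 and 69.5 CPM in NC. The 3 NC values lay close to each other and all Tg2 values were higher (log2 fold change 0.43, SE 0.06, edgeR adjusted p = 0.00865). PLOD1, a lysyl hydroxylase of collagen, was at 143, 139 and 133 CPM in Tg2 and 108, 112 and 108 CPM in NC, groups that were tight and separate (log2 fold change 0.34, SE 0.05, edgeR adjusted p = 0.00865). LLGL1, a cell polarity protein, rose from 129, 123 and 123 to 165, 159 and 165 CPM (log2 fold change 0.38, SE 0.06, edgeR adjusted p = 0.00877). Others in this set were DNPEP, an aminopeptidase (log2 fold change 0.42), SLC25A25, a mitochondrial ATP-magnesium/phosphate carrier (0.39), RASGEF1C, a Ras guanine exchange factor (0.34), IFRD1, a transcriptional co-regulator (0.33), and PKP3, a desmosomal plaque protein (0.26), each with an edgeR adjusted p of 0.00877. PKP3 was close to the fold threshold.

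Decreases of comparable certainty were led by CBS, the enzyme that condenses homocysteine and serine to cystathionine. It was at 13.8, 12.5 and 14.1 CPM in Tg2 and 18.1, 17.8 and 18.4 CPM in NC, with all Tg2 libraries lower (log2 fold change -0.43, SE 0.07, edgeR adjusted p = 0.00877). ITGAV, the integrin alpha V subunit, was at 153, 147 and 156 CPM in Tg2 and 184, 183 and 180.1 CPM in NC, a small but separate decrease (log2 fold change -0.27, SE 0.04, edgeR adjusted p = 0.00994). Also lower were RNF144A, a ubiquitin ligase (log2 fold change -0.38), TSPAN9, a tetraspanin (-0.33), CMPK1, a pyrimidine nucleotide kinase (-0.34), ACADSB, an acyl-CoA dehydrogenase of branched-chain amino acid breakdown (-0.43), HMGN3, a nucleosome-binding protein (-0.33), ZBTB44, a zinc finger protein (-0.34), STX2, a syntaxin (-0.40), PPP1R1A, an inhibitor of protein phosphatase 1 (-0.30), CCPG1, an ER-phagy receptor (-0.27), and CCDC39, needed for the assembly of motile cilia (-0.54). Their edgeR adjusted p-values lay between 0.0107 and 0.0134.

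Early growth-response transcription factors, which are induced within minutes to hours of growth factor or stress signals, were higher in Tg2 as a group. Of 39 tested members, 12 rose (30.8%, against 4.73% of all tested genes), 0 fell, and 27 did not pass the test. Their median log2 fold change was 0.27, against -0.01 over all tested genes, and 33 of 39 were higher (29 of 39 with scaling by library size alone). JUNB, an AP-1 subunit, was at 165, 179 and 178 CPM in Tg2 and 122, 113 and 130.3 CPM in NC, and the groups were separate (log2 fold change 0.52, SE 0.08, edgeR adjusted p = 0.00877). FOSL1, another AP-1 subunit, was at 102, 108 and 102 CPM in Tg2 and 60.5, 71.0 and 59.7 CPM in NC (log2 fold change 0.71, SE 0.12, edgeR adjusted p = 0.0107). KLF4 (0.52), MAFF (0.67), IER2 (0.47), BHLHE40 (0.38) and the mRNA-decay factors ZFP36 (0.54) and ZFP36L1 (0.56) were among the other members that rose. FOS, EGR1 and JUN, among the fastest to respond, were not called. FOS was at 467, 652 and 678 CPM in Tg2 and 509, 517 and 618 CPM in NC, which overlapped (log2 fold change 0.13, SE 0.19, edgeR adjusted p = 0.652), and EGR1 had 0.26 and JUN 0.06. In these genes Tg2 replicate 3 was as far from NC as replicate 1, since the median difference from the NC mean on the log2(CPM + 1) scale was 0.24, 0.34 and 0.29. With Tg2 replicates 1, 2 and 3 and then NC replicates 1, 2 and 3 left out in turn, the list had 6, 0, 16, 3, 14 and 0 DEGs, and the same order is used for the lists below.

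Several genes that damp MAPK signalling rose. Of 27 tested feedback inhibitors, 8 rose and 1 fell, with a median log2 fold change of 0.18 and 1, 0, 10, 0, 8 and 0 DEGs with each library left out. DUSP6, the phosphatase that inactivates ERK, was at 117, 117 and 99.8 CPM in Tg2 and 67.3, 79.8 and 65.7 CPM in NC, with every Tg2 library above every NC library (log2 fold change 0.65, SE 0.11, edgeR adjusted p = 0.0117). DUSP10, which acts on JNK and p38, was at 95.9, 87.7 and 65.8 CPM in Tg2 and 46.9, 56.2 and 43.0 CPM in NC and had its lowest Tg2 value in replicate 3 (log2 fold change 0.77, SE 0.18, edgeR adjusted p = 0.0213). DUSP5 (0.52), DUSP1 (0.41), the receptor tyrosine kinase antagonists SPRY1 (0.63) and SPRY2 (0.36), the EGF receptor inhibitor ERRFI1 (0.44) and PHLDA1 (0.39) also rose, and DUSP19 fell (-0.52). Of 42 MAPK cascade kinases and Ras proteins, 1 was called, MAP2K5 (log2 fold change 0.29, SE 0.09, edgeR adjusted p = 0.0414). Their median was 0.02, and 23 were higher, or 11 with scaling by library size alone.

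Among 14 EGF family ligands and receptors, 3 rose and 0 fell (21.4% called, against 8.43% of all tested genes). The list did not move one way, as its median log2 fold change was -0.02, with 6 members higher and 8 lower. With each library left out, 0, 0, 8, 0, 4 and 0 were called, and 4 of the 8 without Tg2 replicate 3 were higher. DESeq2 called 5, of which 4 were higher. EREG, the ligand epiregulin, was at 135, 133 and 94.7 CPM in Tg2 and 77.7, 90.5 and 68.3 CPM in NC, with Tg2 replicate 3 only just above NC replicate 2 (log2 fold change 0.61, SE 0.18, edgeR adjusted p = 0.0403). HBEGF, heparin-binding EGF, was at 127, 128 and 114 CPM in Tg2 and 90.1, 101 and 98.7 CPM in NC (log2 fold change 0.35, SE 0.09, edgeR adjusted p = 0.027), and the third was ERRFI1. AREG, the ligand amphiregulin, was at 5.55, 4.02 and 3.68 CPM in Tg2 and 1.89, 2.25 and 1.73 CPM in NC. Its groups were separate but it missed the threshold (log2 fold change 1.17, SE 0.42, edgeR adjusted p = 0.0716). The receptors EGFR (-0.09), ERBB2 (-0.21) and ERBB3 (-0.44) were not called.

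Vasoactive and hypoxia-responsive genes included some of the clearest increases. EDN1 (ENSSSCG00000035598), the precursor of the vasoconstrictor endothelin-1, was at 64.8, 66.3 and 49.6 CPM in Tg2 and 25.7, 35.4 and 27.3 CPM in NC. Every Tg2 library was higher, a 2.04-fold increase (log2 fold change 1.03, SE 0.16, edgeR adjusted p = 0.00877). Of 19 vasoactive and nitric oxide genes, 3 rose, EDN1, ADM and the transcription factor KLF4, and 2 fell, DDAH1 (-0.44) and DDAH2 (-0.48), the enzymes that degrade the nitric oxide synthase inhibitor dimethylarginine. DDAH1 was at 225, 226 and 288 CPM in Tg2 and 340.0, 313 and 351 CPM in NC, with replicate 3 nearest NC (log2 fold change -0.44, SE 0.10, edgeR adjusted p = 0.0219). Of 39 hypoxia-responsive and glycolytic genes, 10 rose and 0 fell, with a median log2 fold change of 0.14 and 3, 0, 14, 2, 13 and 0 DEGs with each library left out. HK2, the inducible hexokinase that starts glycolysis, was at 100.5, 97.1 and 82.9 CPM in Tg2 and 60.0, 64.8 and 51.3 CPM in NC, without overlap (log2 fold change 0.67, SE 0.11, edgeR adjusted p = 0.0117). BNIP3, a mitophagy receptor, was at 135, 134 and 113 CPM in Tg2 and 92.1, 94.6 and 87.8 CPM in NC (log2 fold change 0.48, SE 0.08, edgeR adjusted p = 0.0117). The glycolytic enzymes PFKL (0.38), ENO1 (0.28) and LDHA (0.27), the regulator PFKFB3 (0.41) and PDK1 (0.42), which restrains pyruvate oxidation, rose, while VEGFA (0.18) and HIF1A (0.14) were not called.

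Many inflammatory genes of the NF-kB pathway rose. Of 45 tested members, 20 rose (44.4%), 0 fell and 25 did not pass the test, and the median log2 fold change was 0.33. NFKBIA, the inhibitor that NF-kB itself induces, was at 238, 216 and 171 CPM in Tg2 and 133, 147 and 119.7 CPM in NC. All Tg2 libraries were higher, replicate 1 most and replicate 3 least (log2 fold change 0.65, SE 0.15, edgeR adjusted p = 0.0219). RELA, the transactivating subunit, was at 157, 149 and 146 CPM in Tg2 and 114, 129 and 123 CPM in NC (log2 fold change 0.31, SE 0.08, edgeR adjusted p = 0.025). The neutrophil chemokine CXCL8 was at 67.7, 73.4 and 55.2 CPM in Tg2 and 38.0, 46.9 and 39.3 CPM in NC, and its groups were separate (log2 fold change 0.66, SE 0.12, edgeR adjusted p = 0.0132). The cytokine IL6 was at 96.3, 101 and 64.5 CPM in Tg2 and 43.7, 55.9 and 36.9 CPM in NC (log2 fold change 0.94, SE 0.24, edgeR adjusted p = 0.0262).

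TNF, an inflammatory cytokine, was at 22.2, 20.6 and 13.1 CPM in Tg2 and 8.80, 12.8 and 7.31 CPM in NC. Tg2 replicate 3 and NC replicate 2 almost met (log2 fold change 0.95, SE 0.24, edgeR adjusted p = 0.0265). The leukocyte adhesion molecules VCAM1 (1.27) and ICAM1 (0.49), the chemokine CXCL2 (0.65), the cytokine LIF (0.40), the TNF receptor TNFRSF1B (0.40), the adaptors FADD (0.42) and TICAM1 (0.42) and the negative regulators TNFAIP3 (0.32), NFKBIE (0.47) and ZC3H12A (0.43) rose. The monocyte chemokine CCL2 had no overlap, at 231, 212 and 124 CPM in Tg2 and 72.1, 119.9 and 57.1 CPM in NC, but was not called (log2 fold change 1.18, SE 0.40, edgeR adjusted p = 0.0605). The list had 31 DEGs without Tg2 replicate 3, 25 without NC replicate 2, 1 without Tg2 replicate 1 and 0 without Tg2 replicate 2, NC replicate 1 or NC replicate 3. It had 28 with only the Tg2 and NC libraries fitted and 30 with replicate number in the model. Of 34 JAK-STAT receptors, kinases and feedback genes, 4 rose and 0 fell, namely the interleukin-4 receptor IL4R (0.61), IL13RA1 (0.33), IL17RA (0.31), and the kinase TYK2 (0.27), which sat just past the fold threshold. The called share was 11.8%, against 8.43% of all tested genes. With each library left out, 1, 0, 11, 0, 10 and 0 of them were called. There were 11 calls with only the Tg2 and NC libraries fitted and 14 with replicate number in the model.

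Interferon-stimulated genes, which encode antiviral proteins, had the highest median of the 36 lists. All 53 tested members had a higher mean in Tg2 (52 with scaling by library size alone), with a median log2 fold change of 0.57, and in 42 of them every Tg2 library exceeded every NC library, against 17.5% of all tested genes. Nevertheless 11 rose by the thresholds (20.8%), 0 fell and 42 did not pass, although 47 had an unadjusted p under 0.05. This count moved with the model. It was 43 with only the Tg2 and NC libraries fitted, 44 with replicate number in the model and 15 by DESeq2. Over all tested genes these 3 fits called 1184, 1624 and 1252. Their summed level was 49455, 45431 and 36142 CPM in Tg2 and 27332, 34955 and 24396 CPM in NC, scaled by library size alone. Tg2 replicate 3 and NC replicate 2 thus nearly met, and NC libraries differed among themselves, with median differences from the NC mean of -0.06, 0.26 and -0.20 on the log2(CPM + 1) scale.

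OASL, an oligoadenylate synthetase-like antiviral protein, was at 489, 454 and 310.0 CPM in Tg2 and 168, 229 and 118 CPM in NC. The lowest Tg2 library was replicate 3 and the highest NC library replicate 2, and the increase was 2.43-fold (log2 fold change 1.28, SE 0.35, edgeR adjusted p = 0.0326). TRIM25, the ubiquitin ligase that activates RIG-I, was at 16.2, 16.8 and 12.9 CPM in Tg2 and 6.34, 8.87 and 5.54 CPM in NC (log2 fold change 1.14, SE 0.31, edgeR adjusted p = 0.0318). BST2, or tetherin, was at 537, 487 and 324 CPM in Tg2 and 212, 299 and 192 CPM in NC, with Tg2 replicate 3 just above NC replicate 2 (log2 fold change 0.94, SE 0.29, edgeR adjusted p = 0.0451). IRF7, the transcription factor that amplifies interferon production, was at 707, 671 and 528 CPM in Tg2 and 360.3, 433 and 317 CPM in NC (log2 fold change 0.78, SE 0.22, edgeR adjusted p = 0.0377). UBA7 (0.94), the activating enzyme for ISG15, IFI6 (0.88), SAMHD1 (0.75), LGALS3BP (0.68) and IFITM3 (0.57) also rose. ISG15 itself narrowly missed the threshold at 3632, 3205 and 2208 CPM in Tg2 and 1468, 1988 and 1208 CPM in NC (log2 fold change 0.96, SE 0.31, edgeR adjusted p = 0.0536), and MX1 was further from it (log2 fold change 0.43, SE 0.15, edgeR adjusted p = 0.0692). The number of called members was 32 without Tg2 replicate 3, 29 without NC replicate 2 and 0 without any of the other 4 libraries.

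Of 16 sensors of foreign nucleic acid and inducers of interferon, 3 rose and 0 fell. STING1, the adaptor of cytosolic DNA sensing, was at 71.0, 68.4 and 56.6 CPM in Tg2 and 36.2, 47.9 and 35.6 CPM in NC, with separate groups (log2 fold change 0.71, SE 0.18, edgeR adjusted p = 0.0275). TREX1, the exonuclease that clears cytosolic DNA, was at 35.7, 31.4 and 23.3 CPM in Tg2 and 17.8, 20.4 and 15.4 CPM in NC (log2 fold change 0.75, SE 0.21, edgeR adjusted p = 0.0356), and TICAM1, the adaptor of Toll-like receptor 3, has been given above. The DNA sensor CGAS (log2 fold change 0.99, SE 0.46, edgeR adjusted p = 0.145) and interferon beta, IFNB1 (log2 fold change 0.60, SE 0.47, edgeR adjusted p = 0.378), were not called. IFNB1 was at 5.06, 2.48 and 2.52 CPM in Tg2 and 2.16, 3.08 and 1.39 CPM in NC. Both groups of cells had received plasmid DNA, and how much entered the cells was not measured in these files.

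Most genes of MHC class II presentation rose. Of 9 tested genes of MHC class II presentation, 8 rose (88.9%), 0 fell and 1, the transactivator CIITA, did not pass (log2 fold change 0.39, SE 0.20, edgeR adjusted p = 0.179). With each library left out the list had 0, 0, 8, 0, 8 and 0 DEGs. HLA-DRA, the pig gene carrying the symbol of the class II alpha chain, was at 131, 128 and 92.3 CPM in Tg2 and 60.5, 77.2 and 53.3 CPM in NC. All Tg2 libraries exceeded NC (log2 fold change 0.88, SE 0.19, edgeR adjusted p = 0.0196). CD74, the invariant chain that escorts class II molecules, was at 339.5, 329 and 305 CPM in Tg2 and 229.8, 252 and 218 CPM in NC (log2 fold change 0.48, SE 0.10, edgeR adjusted p = 0.0165). The peptide-loading molecules SLA-DMA (0.54) and SLA-DMB (0.69), SLA-DOA (0.55), SLA-DQB1 (0.42), the reductase IFI30 (0.41) and the protease CTSS (0.61) also rose. Reads of near-identical family members, such as the MHC genes here and the chemokines above, could have been shared between copies in quantification, so single members are less certain than the list.

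Of 16 class I and immunoproteasome genes, 7 rose and 0 fell, with a median of 0.42 and 0, 0, 11, 0, 10 and 0 DEGs with each library left out. TAP1, a subunit of the peptide transporter into the ER, was at 1128, 1012 and 861 CPM in Tg2 and 661, 779 and 624 CPM in NC, and the groups did not overlap (log2 fold change 0.54, SE 0.17, edgeR adjusted p = 0.0454). TAPBP, or tapasin, was at 851, 814 and 748 CPM in Tg2 and 586, 642 and 582 CPM in NC (log2 fold change 0.41, SE 0.09, edgeR adjusted p = 0.0207). The immunoproteasome subunit PSMB8 (0.44) and the activator subunits PSME1 (0.32) and PSME2 (0.47) rose, while PSMB9 (log2 fold change 0.44, SE 0.17, edgeR adjusted p = 0.0826) and the light chain B2M (log2 fold change 0.25, SE 0.09, edgeR adjusted p = 0.066) did not pass. The constitutive proteasome had 2 of 30 subunits called, PSMB4 (0.38) and PSMD10 (0.38), and a median of 0.04, with 23 of 30 higher and 13 of 30 with scaling by library size alone.

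Markers of tubular injury and repair rose in most of the list. Of 24 tested genes, 13 rose (54.2%) and 0 fell, with a median log2 fold change of 0.34 and 0, 0, 15, 1, 15 and 0 DEGs with each library left out. CLU, or clusterin, a secreted chaperone of injured tubules, was at 5899, 5600.3 and 4949.8 CPM in Tg2 and 3649.7, 4296 and 3518 CPM in NC. All Tg2 libraries were higher (log2 fold change 0.52, SE 0.10, edgeR adjusted p = 0.0165). SPP1, or osteopontin, was at 13215, 12386 and 11287 CPM in Tg2 and 9248, 10568 and 8922 CPM in NC (log2 fold change 0.36, SE 0.08, edgeR adjusted p = 0.021). SOX9, the transcription factor of regenerating tubule cells, was at 79.8, 70.1 and 55.5 CPM in Tg2 and 39.2, 45.6 and 39.8 CPM in NC, with replicate 3 lowest among Tg2 (log2 fold change 0.72, SE 0.14, edgeR adjusted p = 0.0142). TIMP1, an inhibitor of matrix metalloproteinases, was at 265, 242 and 192 CPM in Tg2 and 137, 167 and 129 CPM in NC (log2 fold change 0.69, SE 0.16, edgeR adjusted p = 0.021). LCN2, or NGAL (0.34), ceruloplasmin CP (0.69), complement C3 (0.37), urokinase PLAU (0.43), its receptor PLAUR (0.88) and KRT7 (0.27) rose too, as did HBEGF and VCAM1, which stand in lists above.

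Matrix and junction genes were mixed. Of 38 genes of the extracellular matrix and its proteases, 9 rose and 2 fell (28.9% called, against 8.43% of all tested genes). With each library left out, 1, 0, 14, 1, 12 and 0 of them were called. Those that rose included PLAU, PLAUR, TIMP1, ADAMTS1 (0.26), plasminogen activator PLAT (0.39) and the lysyl hydroxylases PLOD1, PLOD2 (0.31) and PLOD3 (0.32), and the genes that fell were TIMP4 (-0.93) and the laminin LAMB2 (-0.26). Of 59 junction and focal adhesion genes, 7 rose and 1, ITGAV, fell (13.6% called, against 8.43% of all tested genes). With each library left out, 2, 0, 14, 1, 8 and 0 of them were called. Those that rose were the adherens junction genes CDH1 (0.30) and JUP (0.39), the tight junction protein F11R (0.41), PKP3, and the focal adhesion genes ITGA3 (0.56), BCAR1 (0.36) and ZYX (0.32). ITGA3, an integrin subunit that binds laminin, was at 1411, 1315 and 1102 CPM in Tg2 and 857, 941 and 796 CPM in NC (log2 fold change 0.56, SE 0.14, edgeR adjusted p = 0.0241). With scaling by library size alone, 8 matrix genes were called, 4 of them higher, and 8 junction and focal adhesion genes, 4 of them higher. The balance of increases over decreases thus depended on the scaling.

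**Figure D4:**
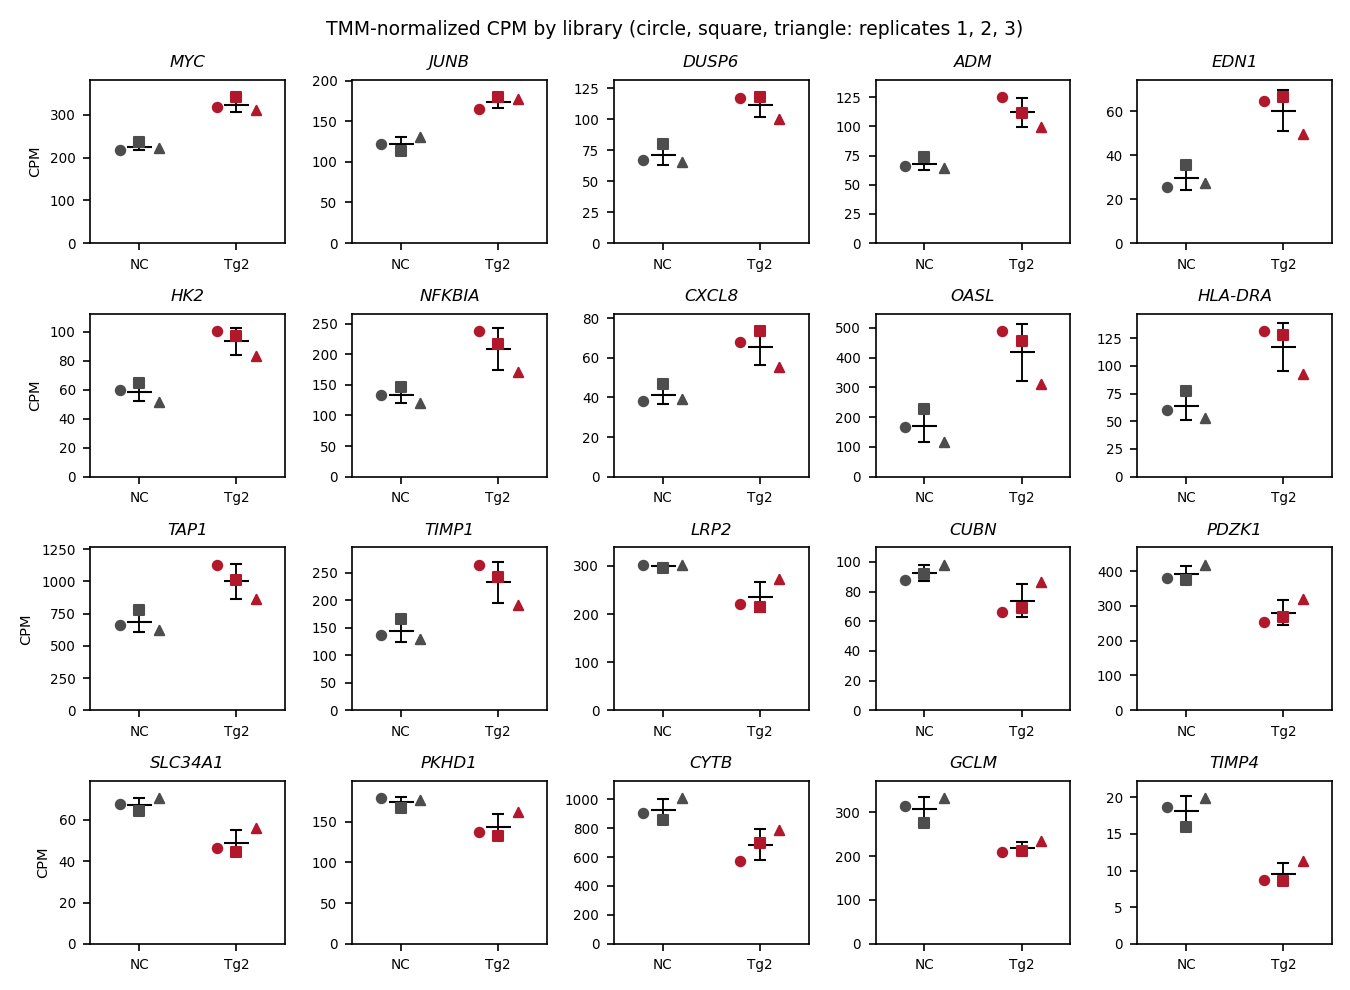
TMM-normalized CPM of 20 genes in the NC (grey) and Tg2 (red) libraries, with a panel per gene and axes that start at 0, where circle, square and triangle are replicates 1, 2 and 3, the horizontal bar is the mean and the whiskers are the SD of 3 libraries. In all 20 panels the 3 Tg2 points lie beyond the 3 NC points, and in every panel but JUNB the red triangle (replicate 3) is the Tg2 point nearest to NC.

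Some genes of DNA synthesis rose, and a few genes of mitosis fell. Of 53 tested genes of the G1/S transition and replication, 10 rose and 2 fell (22.6% called, against 8.43% of all tested genes), with a median of 0.10, 39 members higher, and 0, 0, 14, 0, 16 and 0 DEGs with each library left out. CCND3, a D-type cyclin, was at 87.1, 86.6 and 72.9 CPM in Tg2 and 57.2, 61.3 and 58.9 CPM in NC, and all Tg2 libraries were higher (log2 fold change 0.47, SE 0.11, edgeR adjusted p = 0.021). PCNA, the replication clamp, was at 142, 157 and 135 CPM in Tg2 and 118, 123 and 109.8 CPM in NC (log2 fold change 0.31, SE 0.07, edgeR adjusted p = 0.0219). FEN1 (0.46), ORC1 (0.40), CCNE2 (0.36), MCM10 (0.35), CDC25A (0.32), MCM5 (0.27), POLD1 (0.27) and E2F4 (0.27) made up the rest, and the pocket proteins RB1 (-0.33) and RBL2 (-0.35), which restrain entry into S phase, fell. Of 45 mitotic genes, 1 rose, PKMYT1 (0.31), and 3 fell, the cyclin CCNB2 (-0.29) and the spindle and cytokinesis proteins ASPM (-0.29) and KIF20B (-0.29), so that 8.89% were called, close to the 8.43% of all tested genes, and 0, 0, 4, 0, 2 and 0 with each library left out. With scaling by library size alone, the calls became 4 higher and 3 lower of the G1/S genes, with 29 members higher, and 0 higher and 10 lower of the mitotic genes. The mitotic median was -0.10, 35 of 45 were lower, and in 20 the 3 Tg2 libraries were all below NC, against 18.0% of all tested genes. CCNB2 was at 21.1, 22.2 and 20.2 CPM in Tg2 and 25.1, 27.3 and 25.0 CPM in NC, which did not overlap (log2 fold change -0.29, SE 0.07, edgeR adjusted p = 0.0219).

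Ribosome biogenesis genes, many of them targets of MYC, had 6 of 42 members called, all higher, and a median of 0.15, and 2, 0, 10, 2, 9 and 0 with each library left out. NOP2, a ribosomal RNA methyltransferase, was at 66.2, 74.9 and 70.5 CPM in Tg2 and 58.0, 57.2 and 55.4 CPM in NC (log2 fold change 0.31, SE 0.05, edgeR adjusted p = 0.0107). NOB1, a nuclease that matures the small subunit RNA, was at 47.3, 49.5 and 47.2 CPM in Tg2 and 39.0, 40.2 and 37.1 CPM in NC, and neither gene overlapped between groups (log2 fold change 0.31, SE 0.05, edgeR adjusted p = 0.00877). The other members were RRP1B (0.52), LYAR (0.41), RRS1 (0.33) and PPAN (0.31). Of 30 p53 target genes, 3 rose and 1 fell (13.3% called, against 8.43% of all tested genes), with a median of 0.02. With each library left out, 0, 0, 7, 0, 5 and 0 of them were called. The phosphatase PPM1D (0.36) and PERP (0.35) were among those that rose and TP53INP1 (-0.37) fell, while CDKN1A (-0.12) and MDM2 (0.05) were not called. Of 28 apoptosis regulators, the pro-apoptotic BID (0.69) and the adaptor FADD rose and BMF (-0.43) fell. That was 10.7% called, near the 8.43% of all tested genes, and 0, 0, 11, 0, 6 and 0 with each library left out.

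ER, calcium and cAMP genes bear on the known functions of polycystin-2, and the calcium genes were called at close to the share of all tested genes. Of 28 ER chaperones and unfolded protein response genes, 5 rose (17.9%, against 4.73% of all tested genes) and 0 fell, with 0, 0, 7, 0, 6 and 0 DEGs with each library left out. XBP1, whose mRNA is spliced by the ER stress sensor, was at 189, 166 and 129 CPM in Tg2 and 107, 126 and 97.8 CPM in NC, with replicate 3 just above NC replicate 2 (log2 fold change 0.55, SE 0.15, edgeR adjusted p = 0.0353). ERN1, which encodes that sensor, IRE1, was at 4.74, 4.25 and 2.65 CPM in Tg2 and 1.63, 2.06 and 0.962 CPM in NC (log2 fold change 1.32, SE 0.36, edgeR adjusted p = 0.0326). ATF4 (0.41), PPP1R15A (0.33) and HERPUD1 (0.29) also rose, whereas the main chaperone HSPA5 passed the adjusted p-value but not the fold threshold (log2 fold change 0.17, SE 0.05, edgeR adjusted p = 0.0297). Of 43 calcium channels, pumps and sensors, 3 rose and 1 fell (9.30% called, against 8.43% of all tested genes), with 0, 0, 7, 0, 6 and 0 DEGs with each library left out. Their median log2 fold change was -0.03, with 20 higher and 23 lower. STIM1, the ER calcium sensor of store-operated entry, was at 90.8, 80.5 and 71.7 CPM in Tg2 and 60.4, 58.9 and 56.2 CPM in NC, without overlap (log2 fold change 0.47, SE 0.10, edgeR adjusted p = 0.0168). ORAI2, a pore subunit of that entry pathway, also rose (0.42), and the ryanodine receptor RYR3 fell (-0.36). The ER release channels ITPR1 (0.06), ITPR2 (-0.06) and ITPR3 (-0.08) were not called.

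Of 34 cAMP and protein kinase A genes, 3 rose and 3 fell (17.6% called, against 8.43% of all tested genes), and 1, 0, 8, 0, 8 and 0 were called with each library left out. PDE1A, a calcium-dependent phosphodiesterase that degrades cAMP and cGMP, was at 24.1, 23.8 and 26.6 CPM in Tg2 and 33.5, 28.9 and 34.1 CPM in NC, with all Tg2 libraries lower (log2 fold change -0.37, SE 0.09, edgeR adjusted p = 0.0231). PDE4A, a cAMP-specific phosphodiesterase, was at 109, 96.0 and 78.6 CPM in Tg2 and 57.0, 75.1 and 54.0 CPM in NC (log2 fold change 0.61, SE 0.19, edgeR adjusted p = 0.0475), and ADCY4, an adenylyl cyclase, rose from 8.45, 10.4 and 8.20 to 17.0, 15.7 and 11.5 CPM (log2 fold change 0.71, SE 0.21, edgeR adjusted p = 0.0421). The remaining calls were the anchoring proteins AKAP1 (0.39) and AKAP11 (-0.30) and the phosphatase inhibitor PPP1R1A, given above. The vasopressin receptor AVPR2 was not called (log2 fold change -0.03, SE 0.09, edgeR adjusted p = 0.855).

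Markers of the proximal tubule, the segment LLC-PK1 cells come from, were present, and some fell in Tg2. Of the 41 markers with counts, 30 were tested, and the others, such as the anion transporter SLC22A8 and the peptidase MME, were below the minimum. Among the 30, 10 fell (33.3%), 0 rose and 20 did not pass, with a median log2 fold change of -0.25 and 25 of 30 lower. LRP2, or megalin, the receptor that retrieves filtered proteins, was at 219.9, 214 and 272 CPM in Tg2 and 301, 295 and 302 CPM in NC. The NC libraries were nearly equal, and Tg2 replicate 3 was nearest to them (log2 fold change -0.35, SE 0.08, edgeR adjusted p = 0.0233). Its partner CUBN, or cubilin, was at 66.0, 68.8 and 86.6 CPM in Tg2 and 87.6, 92.2 and 98.1 CPM in NC (log2 fold change -0.33, SE 0.08, edgeR adjusted p = 0.0266), and the endocytic adaptor DAB2 fell by a log2 fold change of 0.33. PDZK1, the scaffold of brush-border transporters, was at 252, 267 and 320.2 CPM in Tg2 and 381, 375 and 418 CPM in NC, with separate groups (log2 fold change -0.48, SE 0.11, edgeR adjusted p = 0.021). SLC34A1, the sodium-phosphate cotransporter, was at 46.4, 44.6 and 55.9 CPM in Tg2 and 67.5, 64.2 and 70.4 CPM in NC (log2 fold change -0.46, SE 0.10, edgeR adjusted p = 0.021). SLC5A2, the glucose transporter SGLT2 (-0.32), the anion transporters SLC17A1 (-0.36) and SLC17A3 (-0.39), the peptidase ANPEP (-0.29) and the cadherin CDH6 (-0.32) fell as well.

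HNF4A, a transcription factor of this segment, was not called (-0.20). The summed level of the list was 2852, 2971 and 3496 CPM in Tg2 and 3898, 3643 and 4114 CPM in NC, scaled by library size alone, so Tg2 replicate 3 lay close to NC replicate 2. The list had 15 DEGs without Tg2 replicate 3, 14 without NC replicate 2 and 0 without any of the other 4 libraries. In bulk RNA, fewer cells expressing a gene and less RNA per cell cannot be told apart. Markers of other nephron segments summed to 285, 276 and 307 CPM in Tg2 and 332, 318 and 337 CPM in NC, and 1 of 7 tested fell, SLC12A1 (log2 fold change -0.51, SE 0.11, edgeR adjusted p = 0.0168). For non-epithelial cells, 5 of the 20 markers in the table were tested and 0 were called by edgeR or DESeq2, 1 of them (COL1A2) with an unadjusted p under 0.05. Their sum, 852 to 914 CPM in Tg2 and 974 to 1035 CPM in NC, was almost entirely COL1A2, a collagen gene, while the leukocyte marker PTPRC, the endothelial markers CDH5 and KDR and the fibroblast markers LUM and PDGFRA were at or near 0 CPM in all 6 libraries.

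Genes of the primary cilium and of inherited cystic kidney disease had a slightly lower median, while their called share was near that of all genes. Of 68 tested, 6 fell and 1 rose (10.3% called, against 8.43% of all tested genes). The median was -0.10, and 45 were lower. PKHD1, the gene of autosomal recessive polycystic kidney disease, which encodes fibrocystin, was at 137, 132 and 161 CPM in Tg2 and 178, 167 and 176 CPM in NC. All Tg2 libraries were lower, replicate 3 by the least (log2 fold change -0.28, SE 0.07, edgeR adjusted p = 0.027). RPGRIP1L, a transition zone protein, was at 22.9, 25.0 and 28.6 CPM in Tg2 and 35.9, 33.9 and 37.1 CPM in NC (log2 fold change -0.48, SE 0.10, edgeR adjusted p = 0.0183). DYNC2LI1, a subunit of the retrograde intraflagellar motor (-0.41), IFT80 (-0.30), CEP290 (-0.27) and IQCB1 (-0.53) fell too. SEC61A1, the ER translocon channel, rose (log2 fold change 0.33, SE 0.09, edgeR adjusted p = 0.0339). BICC1, an RNA-binding protein whose loss gives cysts, passed the adjusted p-value but not the fold threshold (log2 fold change -0.24, SE 0.07, edgeR adjusted p = 0.0401). With each library left out there were 0, 0, 17, 0, 12 and 0 DEGs. With scaling by library size alone, 16 members were called, all lower, SEC61A1 no longer among them. Of 34 Wnt genes, the planar polarity co-receptor PTK7 (log2 fold change -0.31, SE 0.07, edgeR adjusted p = 0.021) and WNT10B (-0.31) fell and the receptor ROR2 rose (log2 fold change 0.63, SE 0.17, edgeR adjusted p = 0.0316). The called share of the Wnt genes was 8.82%, near the 8.43% of all tested genes. With each library left out, 0, 0, 6, 0, 4 and 0 of them were called.

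Some transcripts of the mitochondrial genome were lower in Tg2. Of the 13 protein-coding genes, 4 fell (30.8%), 0 rose, and 12 had a lower mean, with a median log2 fold change of -0.28, and 0, 0, 8, 0, 4 and 0 were called with each library left out. CYTB, the cytochrome b of complex III, was at 575, 695 and 788 CPM in Tg2 and 907, 855 and 1005 CPM in NC. Replicate 1 was lowest and replicate 3 highest within Tg2, and all were below NC (log2 fold change -0.43, SE 0.13, edgeR adjusted p = 0.0443). ND6, a complex I subunit encoded on the opposite strand to the others, was at 249, 298 and 310.0 CPM in Tg2 and 367, 388 and 406 CPM in NC (log2 fold change -0.44, SE 0.10, edgeR adjusted p = 0.021), and ND3 (-0.28) and ATP8 (-0.38) also fell. COX1, the catalytic subunit of complex IV, had a log2 fold change of 0.00 (SE 0.03, edgeR adjusted p = 0.932). The library preparation selected poly(A) RNA with oligo(dT) beads, and no source states whether it kept strand.

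Among 33 genes of defence against reactive oxygen species, 1 rose and 2 fell. The called share was 9.09%, near the 8.43% of all tested genes. With each library left out, 0, 0, 7, 0, 7 and 0 of them were called. GCLM, the regulatory subunit of the rate-limiting enzyme of glutathione synthesis, was at 209, 212 and 234 CPM in Tg2 and 314, 276 and 331 CPM in NC, with no overlap (log2 fold change -0.49, SE 0.11, edgeR adjusted p = 0.0198). SLC7A11, the cystine importer, was at 26.5, 29.0 and 29.5 CPM in Tg2 and 41.4, 36.7 and 41.9 CPM in NC (log2 fold change -0.50, SE 0.09, edgeR adjusted p = 0.0134). SOD2, the mitochondrial superoxide dismutase, which is also induced by NF-kB, was at 193, 171 and 141 CPM in Tg2 and 127, 140.0 and 119 CPM in NC, so that Tg2 replicate 3 and NC replicate 2 nearly met (log2 fold change 0.39, SE 0.12, edgeR adjusted p = 0.0444). NQO1 (-0.06) and HMOX1 (-0.07), targets of the transcription factor NRF2 like GCLM and SLC7A11, were not called.

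Among DEGs with a symbol and no overlap, the largest increases included several immune genes. IL4I1, a secreted L-amino acid oxidase of immune cells, was at 66.5, 54.7 and 35.6 CPM in Tg2 and 14.6, 23.4 and 10.4 CPM in NC. The lowest Tg2 library, replicate 3, was above the highest NC library, replicate 2 (log2 fold change 1.69, SE 0.43, edgeR adjusted p = 0.0261). CXCL9, a chemokine induced by interferon gamma, was at 15.7, 14.9 and 7.68 CPM in Tg2 and 3.87, 5.98 and 2.35 CPM in NC (log2 fold change 1.64, SE 0.45, edgeR adjusted p = 0.0324). SIGLEC1, a sialic acid-binding lectin known as an interferon-induced marker of macrophages, was at 127, 108 and 63.4 CPM in Tg2 and 29.1, 43.3 and 23.7 CPM in NC (log2 fold change 1.63, SE 0.38, edgeR adjusted p = 0.0219). The complement gene C4A was at 51.8, 46.4 and 28.6 CPM in Tg2 and 14.0, 21.9 and 12.5 CPM in NC (log2 fold change 1.38, SE 0.34, edgeR adjusted p = 0.0256). ARRB1, or beta-arrestin-1 (1.49), NUGGC (1.46), the B-cell linker BLNK (1.44), TCHHL1 (1.40), PPP1R1B, or DARPP-32 (1.39), and FAM131B (1.38) were the others. In each of these 10 genes replicate 3 was the lowest Tg2 library.

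The largest decreases were smaller. NRTN (ENSSSCG00000033413), or neurturin, a ligand of the GDNF family, was at 1.75, 2.33 and 2.02 CPM in Tg2 and 4.09, 3.05 and 4.73 CPM in NC, close to the minimum of 2 CPM (log2 fold change -0.96, SE 0.18, edgeR adjusted p = 0.0141). TIMP4 (ENSSSCG00000033000), a metalloproteinase inhibitor, was at 8.73, 8.59 and 11.3 CPM in Tg2 and 18.7, 16.0 and 19.9 CPM in NC, with a wide gap between the groups (log2 fold change -0.93, SE 0.17, edgeR adjusted p = 0.0136). CDKL2, a protein kinase, was at 12.9, 15.9 and 20.4 CPM in Tg2 and 29.1, 24.6 and 30.5 CPM in NC (log2 fold change -0.77, SE 0.17, edgeR adjusted p = 0.021). SLC47A2, which extrudes organic cations from the proximal tubule, was at 4.16, 4.67 and 6.25 CPM in Tg2 and 8.80, 8.11 and 8.70 CPM in NC (log2 fold change -0.76, SE 0.16, edgeR adjusted p = 0.0168). THSD4 (-0.90), MFAP3L (-0.90), the potassium channel KCNH2 (-0.82), the Golgi GTPase RAB30 (-0.79), RASGEF1A (-0.76) and ANKRD53 (-0.71) completed the set.

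To ask which of these differences were also seen against other PKD2 plasmids, Tg2 was compared directly with WT, Tg1 and Tg3. These comparisons share the Tg2 libraries with the one above, so their values stand side by side and are not independent. Against WT there were 684 DEGs (5.92% of genes), 382 (3.31%) higher and 302 (2.61%) lower in Tg2. Against Tg1 there were 16 (0.138%), 14 higher (0.121%) and 2 lower (0.0173%), and against Tg3 there were 0 by edgeR and 0 by DESeq2, with 673 and 545 genes at an unadjusted p under 0.05. The count against WT was 1878 without Tg2 replicate 3 and 2421 without WT replicate 2, but 1 without WT replicate 1 and 0 without Tg2 replicate 1, Tg2 replicate 2 or WT replicate 3, where 2585, 2886 and 2254 genes had an unadjusted p under 0.05. It was also 0 when only the 6 libraries of Tg2 and WT were fitted, with 2708 genes at an unadjusted p under 0.05, whereas DESeq2 on all 15 libraries gave 1184. Against Tg1, leaving out Tg2 replicates 1, 2 and 3 and then Tg1 replicates 1, 2 and 3 gave 0, 3, 117, 0, 0 and 80 DEGs.

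Tg2 was still higher than WT in interferon and antigen presentation genes. The median log2 fold change against WT of the interferon-stimulated genes was 0.56, with 6 of 53 called higher, that of the MHC class II genes was 0.45, with 5 of 9 called higher, and that of the NF-kB genes was 0.32, with 13 of 45 called higher. CXCL9 was at 3.35, 7.24 and 1.44 CPM in WT, and the difference was 1.67 (SE 0.46, edgeR adjusted p = 0.041). SIGLEC1 was at 31.4, 66.6 and 19.6 CPM in WT, where replicate 2 exceeded the lowest Tg2 library (log2 fold change 1.35, SE 0.38, edgeR adjusted p = 0.0433). Of the G1/S and replication genes, 13 of 53 were called higher and 1 lower, with MCM5 among the former (log2 fold change 0.35, SE 0.07, edgeR adjusted p = 0.025).

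For the early response genes the median log2 fold change against WT was 0.01, with 1 of 39 called higher and 1 lower. MYC was at 300.3, 262 and 273 CPM in WT, 258, 285 and 312 CPM in Tg1 and 292, 281 and 274 CPM in Tg3, all above NC and all but Tg1 replicate 3 below the lowest Tg2 library, and it was not called in Tg2 against WT (log2 fold change 0.21, SE 0.07, edgeR adjusted p = 0.0546), Tg1 (0.18) or Tg3 (0.19). IER3 had 0.15 against WT, 0.20 against Tg1 and 0.24 against Tg3, and was not called in these comparisons. JUNB likewise had 0.24, 0.11 and 0.20. ADM was at 87.4, 94.2 and 78.8 CPM in WT and was called in Tg2 against WT (log2 fold change 0.37, SE 0.09, edgeR adjusted p = 0.0363), but not against Tg1 (0.19) or Tg3 (0.35).

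Proximal tubule markers remained lower against WT, with a median of -0.25 and 8 of 30 called lower, though 1 was called higher. PDZK1 was at 418, 324 and 424 CPM in WT, with WT replicate 2 lowest and just above Tg2 replicate 3 (log2 fold change -0.48, SE 0.11, edgeR adjusted p = 0.0313). TIMP4 was at 20.4, 13.8 and 20.5 CPM in WT, all above Tg2 (log2 fold change -0.93, SE 0.17, edgeR adjusted p = 0.0239). Against Tg1 the median was -0.13 for these markers, 0.27 for the interferon-stimulated genes and 0.06 for the early response genes. The DEG among the genes above was SLC7A1, at 68.7, 72.4 and 79.1 CPM in Tg1 (log2 fold change 0.37, SE 0.06, edgeR adjusted p = 0.0307), and it was also higher than in WT, at 70.2, 75.2 and 66.2 CPM (log2 fold change 0.43, SE 0.06, edgeR adjusted p = 0.0152). The remaining DEGs against Tg1 included DMXL1, a V-ATPase regulator, at 85.4, 91.9 and 95.1 CPM in Tg1 and 113, 115 and 117 CPM in Tg2 (log2 fold change 0.34, SE 0.04, edgeR adjusted p = 0.016), the Hedgehog receptor PTCH1 (0.51), the G protein subunit GNAQ (0.29) and the nucleoporin NUP205 (0.29). The 2 lower ones were RNF5, an ER ubiquitin ligase (-0.30), and TMEM42 (-0.41). Only 2 of the DEGs against Tg1 were also DEGs against NC, SLC7A1 and a gene without a symbol. The other genes named here, from DMXL1 to TMEM42, were not called in Tg2 against NC.

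**Figure D5:**
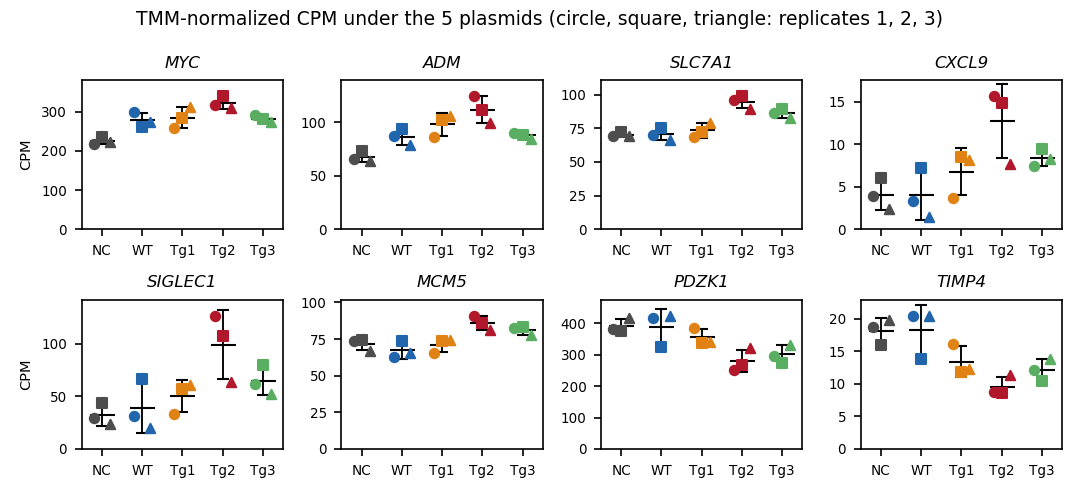
TMM-normalized CPM of 8 genes under all 5 plasmids, with a panel per gene, axes that start at 0, circle, square and triangle for replicates 1, 2 and 3, a bar for the mean and whiskers for the SD of 3 libraries. In MYC all WT, Tg1 and Tg3 points lie above NC, while in SLC7A1 all NC, WT and Tg1 points lie below all Tg2 and Tg3 points.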

How the data were processed

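RNA was sequenced from LLC-PK1 cells 48 h after transfection with 3 µg of 1 of 5 plasmids, with 3 libraries per plasmid, after mRNA selection with oligo(dT) beads. Salmon was run by the authors on the pig cDNA set of Ensembl, and they deposited whole-number counts per gene for all 15 libraries. How transcript estimates were summed to genes is not given in the sources used here.

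Groups were taken from the GEO labels. Genes with a mean of 2 CPM or more were kept (11553 of 16660). All 5 groups were fitted together with edgeR 4.0.16 in R 4.3.3 (TMM scaling, quasi-likelihood test, Benjamini-Hochberg adjustment over all tested genes), and Tg2 was set against NC and then against WT, Tg1 and Tg3. DEGs had an adjusted p of at most 0.05 and a log2 fold change of at least 0.26 in size. CPM and sums of CPM are descriptive. DESeq2 1.42.0, other scalings, other filters, 2-group fits, a replicate block and leaving out each library were tried as alternatives. On simulated counts for Tg2 against NC (11553 genes), edgeR recovered 100% of the genes changed by log2 1 and 92% of those changed by log2 0.5, with 5 false calls. The simulated noise was drawn separately for each gene and library, without shifts shared by many genes of a library. The simulation therefore cannot show how many calls in the real libraries were false.

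By rule, the text names the 12 DEGs with the smallest adjusted p and the 10 with the largest fold change in each direction, among those with a symbol and no overlap between groups, and the 3 members of each list with the smallest p. Other genes named were chosen after their values were seen. The comparison and the gene lists were chosen with earlier results of these data known. Symbols came from a reference table of gene IDs and, where that had none, from the supplementary tables of the study. For genes with many counts, counting noise was small at these depths (20216200 to 26132196 counts per library), so the spread between libraries limits the precision. Genes near the minimum of 2 CPM, such as IFNB1 (36 to 113 counts in the Tg2 and NC libraries), carry more counting noise. Some members of the lists are counted but not reported here by name.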

Additional observations from a re-analysis of the deposited data

Results flagged for a closer look

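Among the genes named by their adjusted p or fold change against NC, 26 also differed directly between Tg2 and WT in the edgeR contrast of those 2 groups, and 1 of them also between Tg2 and Tg1. Because the Tg2 libraries are the same in each contrast, these differences are not independent of those against NC. Genes higher in Tg2 than in WT, by log2 fold change, were CXCL9 (1.67), ARRB1 (1.59), IL4I1 (1.49), TCHHL1 (1.42), SIGLEC1 (1.35), NUGGC (1.21), PPP1R1B (1.20), C4A (1.19), SLC7A1 (0.43), ADM (0.37), DNPEP (0.35), PKP3 (0.33) and LLGL1 (0.31). Genes lower in Tg2 than in WT were TIMP4 (-0.93), MFAP3L (-0.90), THSD4 (-0.78), SLC47A2 (-0.69), CDKL2 (-0.65), ANKRD53 (-0.63), CCDC39 (-0.46), ACADSB (-0.34), TSPAN9 (-0.31), CMPK1 (-0.31), ZBTB44 (-0.31), CBS (-0.28) and STX2 (-0.27). SLC7A1 was also higher in Tg2 than in Tg1 (0.37). A call against both NC and WT was common among all DEGs, not particular to the named genes. Of the 546 DEGs higher than NC, 272 (49.8%) were also called higher than WT. Of the 428 lower than NC, 194 (45.3%) were also called lower than WT.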

How the results depend on the processing

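The number of DEGs depended most on single libraries. Against NC it ranged from 0 to 1878 when a Tg2 or NC library was left out, against WT from 0 to 2421, and against Tg1 from 0 to 117. Leaving out a WT, Tg1 or Tg3 library, an alternative chosen after the data were seen, gave 680 to 1597 DEGs against NC, the highest without WT replicate 2 (1597). The cause was not tested. Without the fold threshold there were 1643 DEGs against NC and 1099 against WT. DESeq2 gave 1252 against NC, 1184 against WT and 156 against Tg1. Scaling by library size alone gave 1392, 1099 and 2, and fitting only the 2 groups compared gave 1184, 0 and 0, with 2708 and 2209 genes at an unadjusted p under 0.05 in the latter pair. Against Tg1 there were 7 without a filter and 7 with edgeR's own filter. Replicate numbers did not pair the libraries throughout. The deviations of same-numbered Tg2 and NC libraries correlated at -0.17, 0.29 and 0.55. Tg2 replicates 2 and 3 correlated best with the NC library of the same number, whereas Tg2 replicate 1 correlated best with NC replicate 2 (0.51). A replicate block in the fit gave 1624 DEGs against NC, 1578 against WT and 162 against Tg1. Tg2 against Tg3 had 0 DEGs under every alternative run. Of 284 named genes, 215 were DEGs, and 0 of these reversed direction under the alternatives run. Most DEGs had no overlap between the groups, so leaving out a library could hardly reverse them. The lack of reversals is therefore little evidence of stability, and no DEG was called in every fit that left out a Tg2 or NC library. Genes near 0 that were not DEGs changed sign, also without being called. With scaling by library size alone these were MDM2 (-0.0245), PKD1 (-0.0166), COX1 (-0.0724), ITPR1 (-0.021), JUN (-0.0148), CD79A (-0.0516) and CD3E (-0.0564). With single libraries left out, the values that crossed 0 ranged as follows: PKD1 (-0.0156 to 0.12), AVPR2 (-0.0984 to 0.0149), COX1 (-0.0116 to 0.019), CD79A (-0.111 to 0.176) and CD3E (-0.0519 to 0.107). CD79A and CD3E are lymphocyte markers.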

Other observations

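Other gene groups had called shares below or near the 8.43% of all tested genes between Tg2 and NC. Of 32 TGF-beta and BMP signalling genes, which drive fibrosis and differentiation, 0 were called by edgeR or DESeq2, and 9 had an unadjusted p under 0.05. The receptor gene TGFBR2 passed the adjusted p but not the fold threshold (log2 fold change 0.22, SE 0.05, edgeR adjusted p = 0.0219). The list had 1 DEG when only Tg2 and NC were fitted, 1 with a replicate block and 5 without Tg2 replicate 3. Of 30 genes of PI3K, AKT and mTOR signalling, 2 fell. PIK3R3, a regulatory subunit of PI3K, was at 139, 135 and 146 CPM in Tg2 and 179, 168 and 189 CPM in NC (log2 fold change -0.35, SE 0.06, edgeR adjusted p = 0.0134). EIF4EBP2, a repressor of translation that mTOR inactivates, was at 157, 151 and 167 CPM in Tg2 and 204, 194 and 207 CPM in NC (log2 fold change -0.35, SE 0.07, edgeR adjusted p = 0.0141). In both genes the Tg2 libraries were all lower.

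Of 30 genes of cholesterol and fatty acid synthesis, 1 rose and 1 fell, the latter ACSS2, an acetyl-CoA synthetase (log2 fold change -0.34, SE 0.10, edgeR adjusted p = 0.0367). Of 20 circadian clock genes, the transcriptional repressors NFIL3 (log2 fold change 0.37, SE 0.09, edgeR adjusted p = 0.0265) and BHLHE40 (log2 fold change 0.38, SE 0.09, edgeR adjusted p = 0.0214) rose. Of 59 chromatin regulators, the acetyltransferase KAT2A (0.31) and the deacetylase HDAC9 (0.50) rose, and the chromatin remodellers CHD2 (-0.28) and CHD9 (-0.28) fell by log2 fold change. None of these 5 lists had any DEG without Tg2 replicate 1, Tg2 replicate 2, NC replicate 1 or NC replicate 3 in the edgeR fits. Without Tg2 replicate 3 they had 5 (TGF-beta and BMP), 5 (PI3K, AKT and mTOR), 4 (cholesterol and fatty acid), 4 (circadian) and 9 (chromatin) DEGs, and without NC replicate 2 they had 0, 2, 3, 2 and 5, against 0, 2, 2, 2 and 4 with all libraries.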
